A study of Mus musculus with 92 samples.

Results

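Cohesin is loaded onto chromosomes, released from them and locked in place by a small group of partner proteins, and the chromosomal regions of 8 genes for such partners are described here. The genes are Nipbl, Mau2, Wapl, Pds5a, Pds5b, Esco1, Esco2 and Cdca5. They were taken by name from the 21887 protein-coding genes of the RefSeq annotation, and what was counted was the binding of cohesin's own STAG subunits and of CTCF in and around them. Each gene's window ran from 10 kb below its lower coordinate to 10 kb above its upper one. Coordinates are those of the mouse build mm10 (GRCm38).

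As background, NIPBL and MAU2 form the loader that brings the cohesin ring to DNA and drives the extrusion of loops. WAPL opens the ring and takes it off again, together with PDS5A or PDS5B, which also carry factors that protect the ring. ESCO1 and ESCO2 acetylate the ring subunit SMC3, ESCO2 in S phase, and sororin, the product of Cdca5, then binds PDS5 and holds WAPL off until mitosis. The ring carries a STAG subunit, STAG1 or STAG2 in most cells and STAG3 in germ cells, and it often halts where CTCF is bound.

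The study mapped STAG proteins and CTCF by chromatin immunoprecipitation and sequencing along a mouse male germline culture series. It holds 92 samples, of which 30 deposited peak lists were used. STAG3 was mapped in 3 replicates of wild-type GSC (germline stem cells). STAG2 and STAG1 were mapped in wild-type ESC (embryonic stem cells), EpiLC (epiblast-like cells), d2PGCLC and d4c7PGCLC (primordial germ cell-like cells, named as the labels name them) and GSC. STAG2 had 2 replicates in ESC and EpiLC and 3 in the other 3 cell types, and STAG1 had 2 in each. CTCF was mapped in GSC of 4 genotypes, each with 1 list from pooled replicates. These were Stag1Stag2dKO (STAG3-only), Stag1Stag3dKO (STAG2-only), Stag2Stag3dKO (STAG1-only) and Stag3 KO, so no CTCF list from wild-type cells was used. Each of the 4 lacks 1 or 2 STAG genes. ESC, EpiLC and both PGCLC stages come from a line with the Blimp1-mVenus and Stella-ECFP reporters, GSC from a line with Acrosin-EGFP and beta-Actin-EGFP, so cell type and line cannot be told apart for GSC. PGCLC and GSC were sorted by their reporters. Peak lists carry no expression values, and the labelled cell types could not be checked against marker genes.

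The lists differed in length, which touches every count below. GSC STAG3 lists held 12832, 38631 and 39681 peaks for replicates 1, 2 and 3, and GSC STAG2 lists held 25021, 13698 and 25979. The shortest list of all was GSC STAG1 replicate 1 with 9641 peaks, and the longest was EpiLC STAG2 replicate 1 with 84904. CTCF lists held 39639 to 43877 peaks. Sequencing depth is unknown from these files, so absence of a call does not show absence of binding.

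The DNA just ahead of 3 of the genes' annotated bodies is shown because these are the 3 starts that every STAG3 list called. The start of Pds5b was called in every list, that of Pds5a by CTCF and STAG3 in every list, and that of Cdca5 by STAG3 in every list without CTCF. Sequences are from RefSeq (GRCm38.p6) and read 5′ to 3′ along each gene's strand. Capitals mark the match to a CTCF core described with Pds5b.
Pds5b, 136 bases at chr5:150673577-150673712, plus strand: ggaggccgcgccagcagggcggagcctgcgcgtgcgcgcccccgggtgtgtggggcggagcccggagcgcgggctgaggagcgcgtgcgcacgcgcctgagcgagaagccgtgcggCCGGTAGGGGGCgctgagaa
Pds5a, 250 bases at chr5:65698237-65698486, minus strand: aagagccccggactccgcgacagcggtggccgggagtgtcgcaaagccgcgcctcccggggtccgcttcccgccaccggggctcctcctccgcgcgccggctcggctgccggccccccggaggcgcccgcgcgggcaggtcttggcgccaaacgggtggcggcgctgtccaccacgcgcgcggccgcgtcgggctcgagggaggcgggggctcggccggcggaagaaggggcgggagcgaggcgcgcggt
Cdca5, 121 bases at chr19:6084976-6085096, plus strand: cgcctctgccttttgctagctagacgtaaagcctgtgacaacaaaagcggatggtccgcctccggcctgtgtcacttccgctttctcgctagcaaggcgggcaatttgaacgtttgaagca
These stretches were 79.4%, 80.4% and 54.5% G or C. The Cdca5 stretch begins 1 base above the neighbouring gene Zfpl1. Promoters of Nipbl, Esco1 and Esco2 were not used here.

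The 8 windows held 62 merged sites, a site being a stretch covered by overlapping peaks of any list. Of these, 25 were called in 1 list alone, 40.3% of the members' sites against 26.6% of the 101843 sites in all gene windows. The genes fell into 2 kinds. Nipbl, Pds5a, Pds5b and Esco1 had STAG2, STAG1 and CTCF peaks stacked on the same few places. Mau2, Esco2 and Cdca5 had no STAG1 peak in any of 10 lists and no CTCF peak in any of 4, and Wapl had 1 STAG1 peak in all. Over all genes, 72.5% had a STAG1 peak in at least 1 list and 20.0% in every list, and 71.8% had a CTCF peak in at least 1 list and 65.4% in every list. All 8 members had a STAG2 peak in at least 1 list, as did 86.3% of genes, and Nipbl, Pds5a, Pds5b and Esco1 had one in all 13, as did 32.3%. All 8 had a STAG3 peak in at least 1 list (76.5% of genes), and Pds5a, Pds5b and Cdca5 had one in all 3 (42.3%). Per 100 kb of window, the members' median in GSC was 2.26 STAG3 peaks (2.28 over all genes) and 0.430 STAG2 peaks (0.957 over all genes), and the CTCF median was 1.67 (2.46 over all genes). STAG2 medians were 2.05 in ESC (4.26 over all genes), 5.14 in EpiLC (4.77), 1.85 in d2PGCLC (3.45) and 1.56 in d4c7PGCLC (2.59). EpiLC was thus the one cell type with the members' STAG2 median above that of all genes. There Mau2, Wapl, Esco2 and Cdca5 lay above the all-gene median (5.62 to 8.59) and Nipbl, Pds5a, Pds5b and Esco1 below it (2.55 to 4.66). The STAG1 median in EpiLC was 0.222 (0.581 over all genes).

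**Figure D1:**
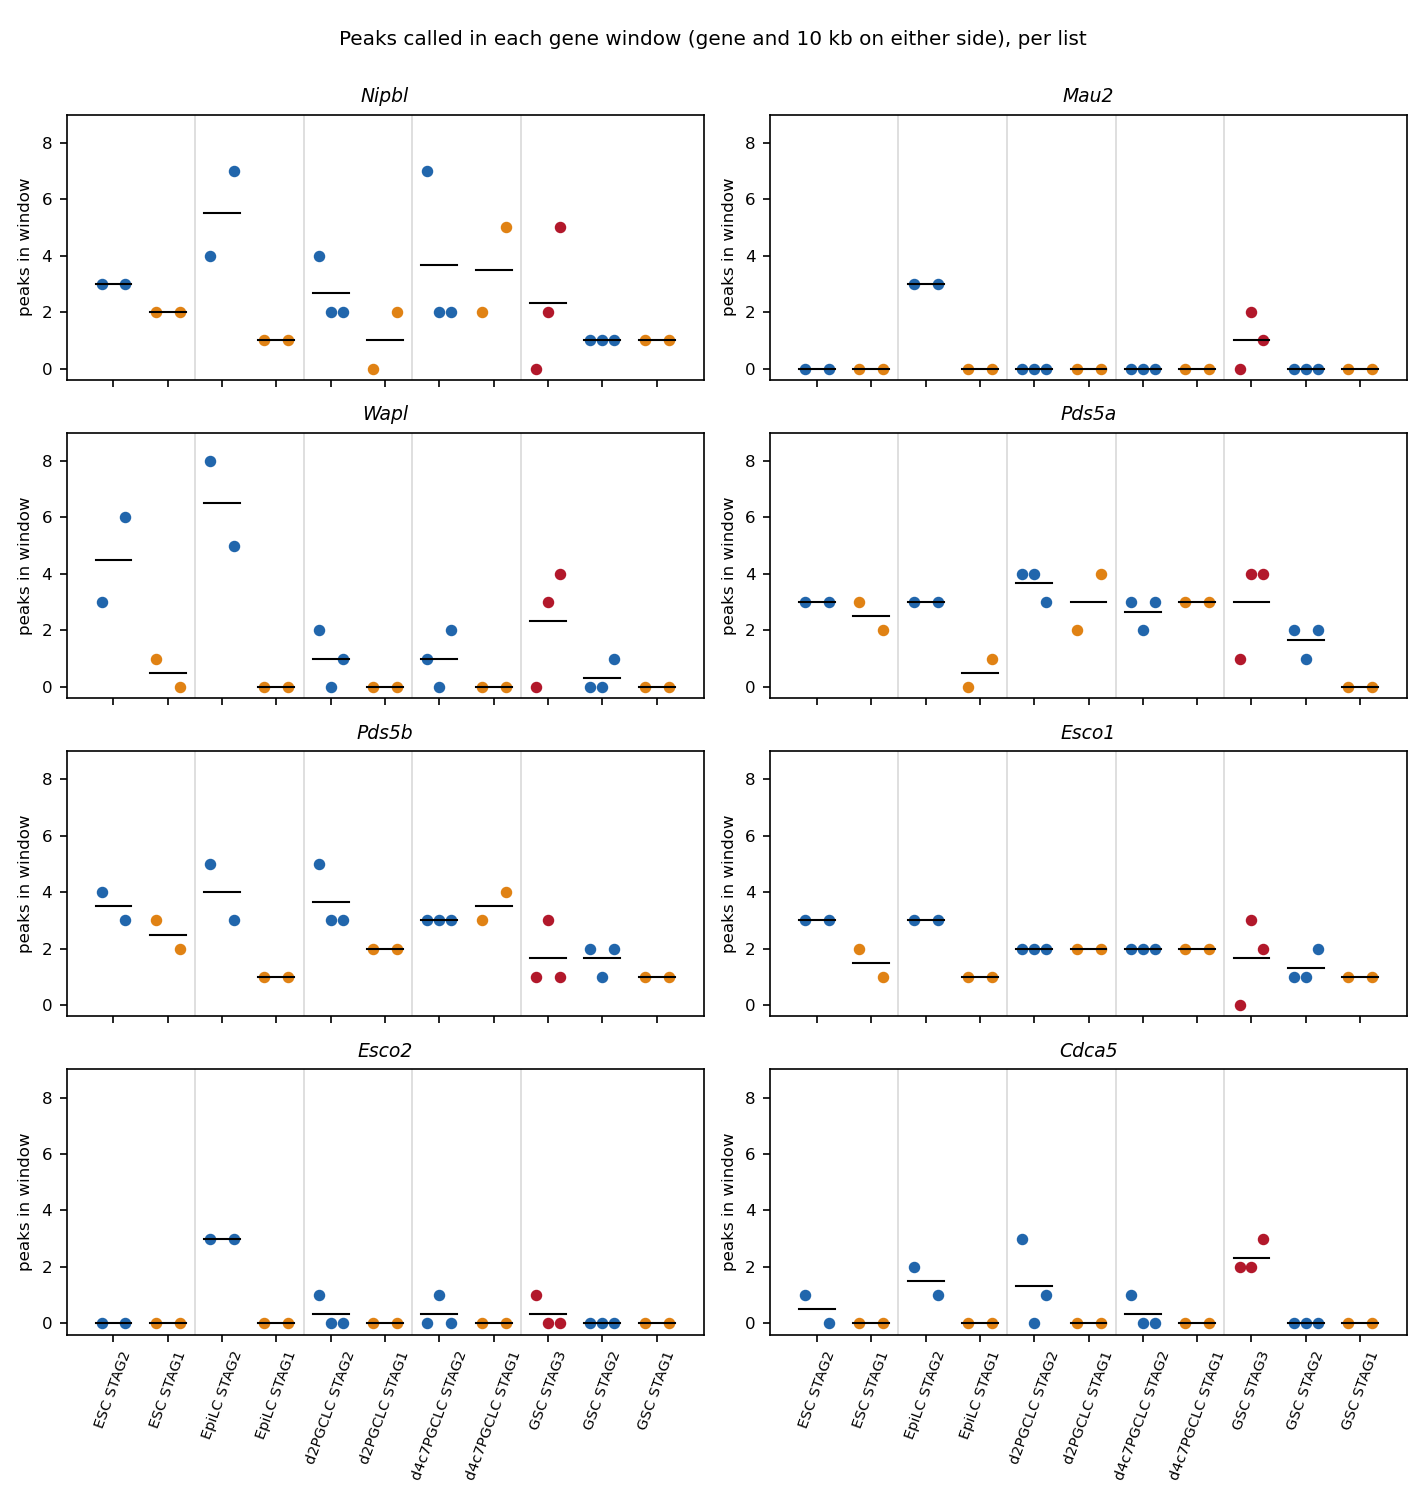
Peaks in the window of each gene (vertical axis, number of peaks) for each list, with groups by cell type and protein on the horizontal axis. Points are lists, bars are group means, red is STAG3, blue STAG2 and orange STAG1. Mau2 and Esco2 had 3 STAG2 peaks in each EpiLC list, and STAG1 points of Mau2, Esco2 and Cdca5 all lie at 0.

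The loader genes differed from each other. Nipbl, which spans 176 kb at chr15:8289824-8465315, had STAG2 peaks in all 13 lists. The STAG2 lists held 3 and 3 peaks in ESC, 4 and 7 in EpiLC, 4, 2 and 2 in d2PGCLC, 7, 2 and 2 in d4c7PGCLC and 1, 1 and 1 in GSC. The STAG1 lists held 2 and 2, 1 and 1, 0 and 2, 2 and 5, and 1 and 1 in the same order of cell types. STAG2 and STAG1 counts overlapped in d2PGCLC, d4c7PGCLC and GSC and did not in ESC and EpiLC. GSC STAG3 lists held 0, 2 and 5 peaks, the 0 being in the short replicate 1.

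A pair of places carried most of the Nipbl signal. The site at chr15:8450804-8451590, inside the gene and 13725 bp from its upper end, was called in 2 of 3 STAG3 lists, 13 of 13 STAG2 lists, 8 of 10 STAG1 lists and all 4 CTCF lists. A second site at chr15:8444663-8445841, further in and also inside the predicted locus LOC102634078, was called in 10 STAG2 lists, 6 STAG1 lists and all 4 CTCF lists. None of the GSC STAG2 or STAG1 lists called this second site, while both longer GSC STAG3 lists and all 4 GSC CTCF lists did. The STAG3 summits there lay a median of -523.5 bp from the CTCF summits, towards lower coordinates, so that the calls share a merged stretch and not a summit. The authors' fold enrichment of its CTCF peaks was 18.5 to 22.2, and of those at the first site 33.2 to 33.8.

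Mau2, a short gene of 28.2 kb at chr8:70014527-70042734, was bare in 21 of the 23 STAG2 and STAG1 lists. Both EpiLC STAG2 lists held 3 peaks, at the same 3 places, and none of the other 28 lists called these. They lay 7616 and 6306 bp below the gene and 7817 bp above it, the last one inside the neighbour Sugp1. At its start, where the annotations of Mau2 and Sugp1 meet, the site at chr8:70042146-70043164 was called by GSC STAG3 replicates 2 and 3 and by no other list.

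Wapl, the release factor's gene at chr14:34672379-34747983, had the largest difference in peaks per window between STAG2 and STAG1 among the 8 genes. STAG2 lists held 3 and 6 peaks in ESC, 8 and 5 in EpiLC, 2, 0 and 1 in d2PGCLC, 1, 0 and 2 in d4c7PGCLC and 0, 0 and 1 in GSC. STAG1 lists held 1 and 0 in ESC and 0 in all 8 others. GSC STAG3 lists held 0, 3 and 4. The order of STAG2 cell type means was EpiLC with 6.5 ± 2.12, ESC with 4.5 ± 2.12 (SD, 2 lists each), both PGCLC stages with 1.00 ± 1.00 and GSC with 0.333 ± 0.577 (SD, 3 lists each). EpiLC and ESC overlapped each other and both lay above the other 3 cell types, which overlapped among themselves.

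No Wapl peak of any STAG protein lay on a CTCF site shared by the 4 genotypes. The start site at chr14:34673312-34674496 was called in 2 STAG3, 9 STAG2 and 1 STAG1 lists and in no CTCF list. The CTCF place called in all 4 genotypes, chr14:34753016-34753352, lay 5033 bp beyond the gene and had no STAG peak. Inside the gene, 4 STAG2 lists, those of ESC and EpiLC, called a site at chr14:34708301-34709459, and no other list did. These 4 lists held 7 peaks there, and the 9 STAG2 lists at the start site held 11. The STAG2 peaks of the Wapl window were weak, with fold enrichment of 3.46 to 6.46. None ranked above the 39.4th percentile of its list.

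**Figure D2:**
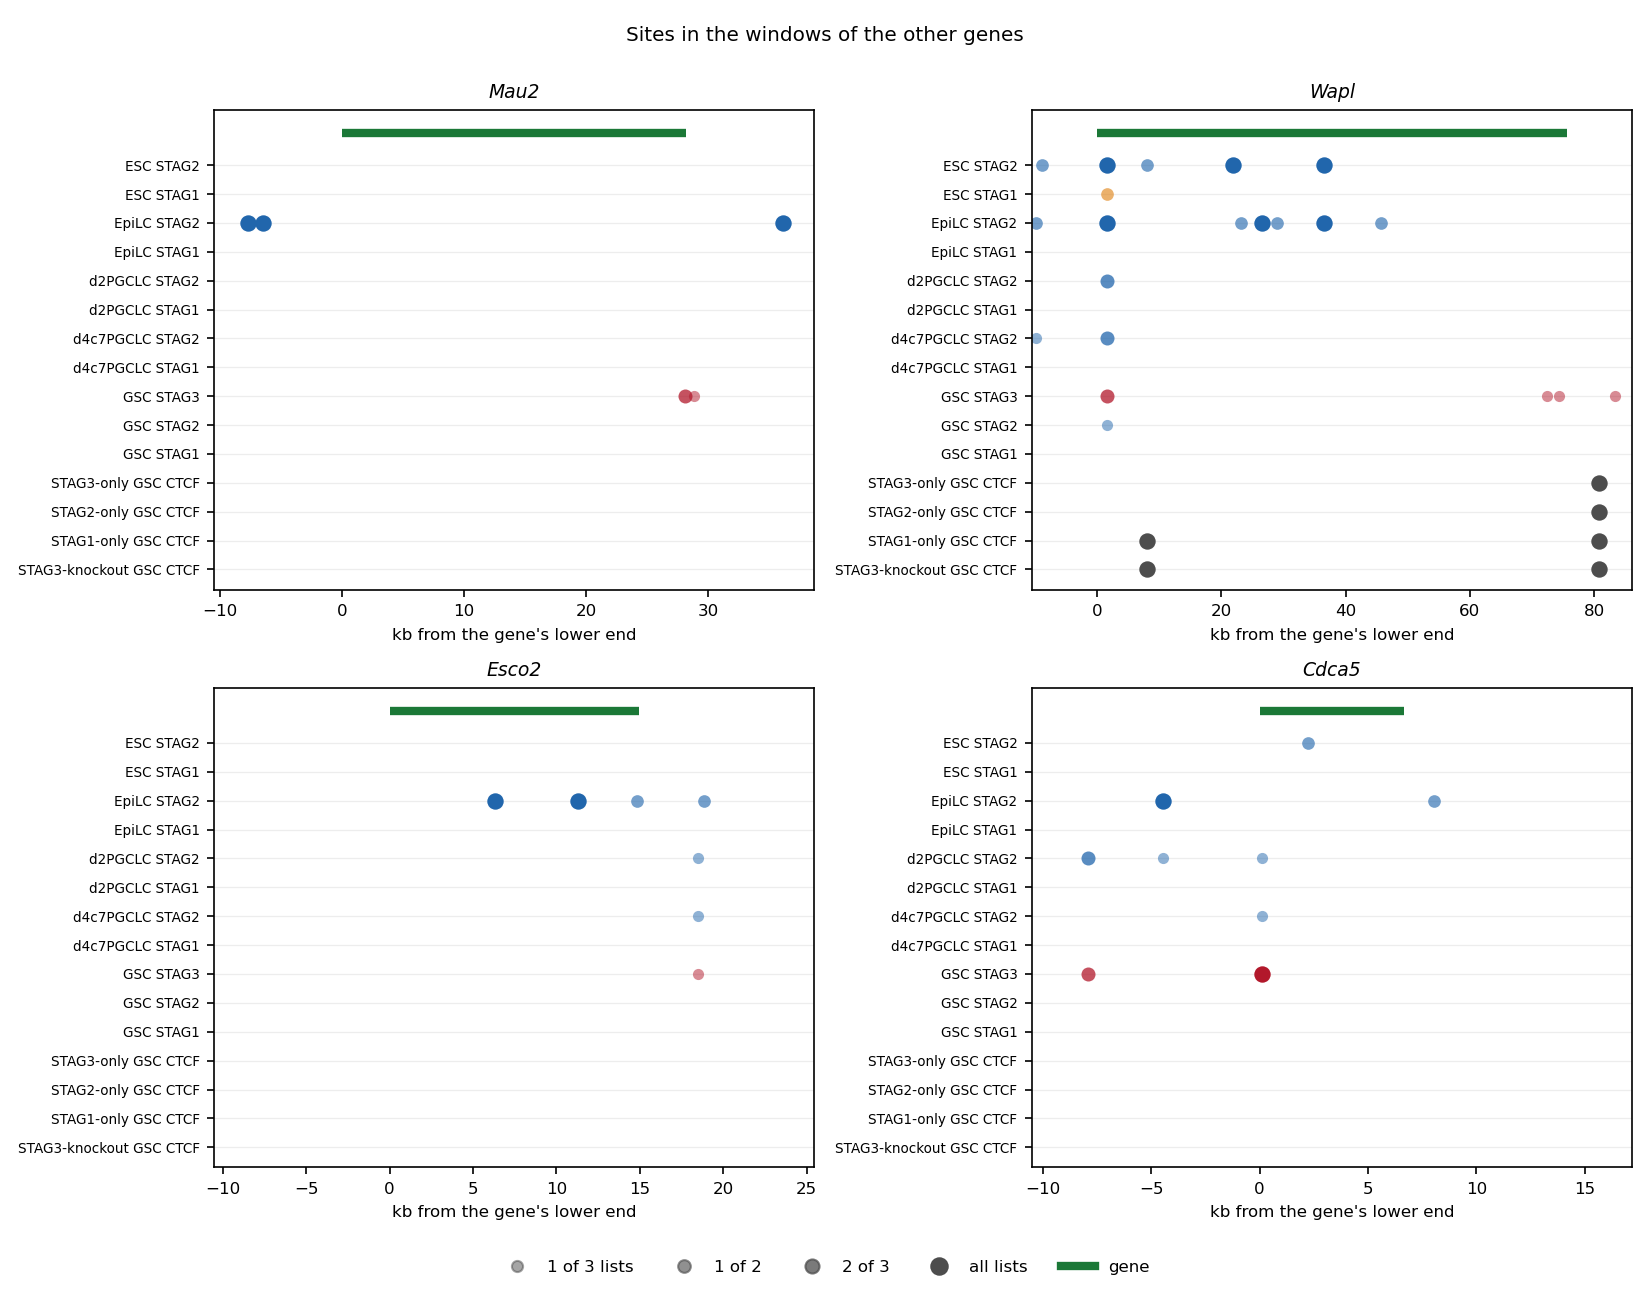
Sites in the windows of Mau2, Wapl, Esco2 and Cdca5, by distance in kb from the gene's lower coordinate (horizontal axis), with 1 row per cell type and protein and 1 per CTCF genotype. Point size and shade give the share of lists that called the site, and the green bar is the gene. CTCF rows are empty for Mau2, Esco2 and Cdca5, and the start of Cdca5 was called in all 3 STAG3 lists.

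The PDS5 genes, whose products bind the ring and serve as a platform for its regulators, each had a site over the start that all 3 STAG3 and all 4 CTCF lists called. Pds5a, at chr5:65605719-65698236 on the minus strand, had STAG2 counts of 3 and 3 in ESC, 3 and 3 in EpiLC, 4, 4 and 3 in d2PGCLC, 3, 2 and 3 in d4c7PGCLC and 2, 1 and 2 in GSC. STAG1 counts were 3 and 2, 0 and 1, 2 and 4, 3 and 3, and 0 and 0. GSC STAG3 lists held 1, 4 and 4. In EpiLC and GSC every STAG2 list lay above every STAG1 list, and in the other 3 cell types the counts overlapped.

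The STAG2 and STAG1 counts came mostly from 3 places near the start of Pds5a, while 5 of the 9 STAG3 peaks lay at or near the other end of the gene. Each of these 5 lay at a separate site that STAG3 replicate 2 or replicate 3 called alone, so none of them recurred. The site at chr5:65696595-65697539, 697 bp inside the gene, was called in 1 STAG3, 13 STAG2, 7 STAG1 and 4 CTCF lists. The site over the start, chr5:65697629-65698914, was called in 3 STAG3, 11 STAG2, 5 STAG1 and 4 CTCF lists. The last, chr5:65706109-65707165 and 7873 bp upstream, had 9 STAG2 and 5 STAG1 lists, no CTCF list and no GSC list of any protein. At the start itself the summits of STAG2 peaks lay a median of 335 bp and those of STAG3 peaks 240 bp from the CTCF summits, towards higher coordinates.

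Pds5b, at chr5:150673713-150810669 on the plus strand, had the only site of the 62 that all 30 lists called (2.14% of sites in all gene windows), and it was also the only one in all 23 STAG2 and STAG1 lists (3.35%). It spans chr5:150673379-150674673 over the start, inside the predicted locus Gm40353. Fold enrichment there was 5.75 to 12.1 in the STAG3 lists, 17.6 to 134 in the STAG2 lists and 8.11 to 30.2 in the STAG1 lists, taking the strongest peak of each list. The 4 CTCF lists gave 41.2 to 42.6, above 99.8% or more of the peaks in their own lists. In the stretch from 250 bases before to 50 after a start, 0.966% of 17492 promoters had a peak in every list for STAG1, 2.74% for STAG2, 13.7% for STAG3 and 7.37% for CTCF.

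The sequence printed for Pds5b holds a match to a CTCF core. The core as first written, CCA, any 2 letters, AG, any 2 letters and GGC on either strand, was in no promoter of the 5 genes with one in the table and in 2.33% of all 17492. With the third letter free, a form chosen after these data were seen, it matched 1 place, the capitals above at chr5:150673693-150673704, 134 bp before the start that the promoter table gives, at 150673827 and inside the annotated gene, and on the gene's strand. That looser form was in 9.84% of promoters. The summits of the 4 CTCF peaks lay 14.5 to 7.5 bp on the upstream side of its centre. Summits of all 13 STAG2 peaks lay 50.5 to 72.5 bp and of all 10 STAG1 peaks 43.5 to 71.5 bp on the other side, towards the gene. The 3 STAG3 summits lay at -59.5, -16.5 and 23.5 bp and overlapped neither STAG range.

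**Figure D3:**
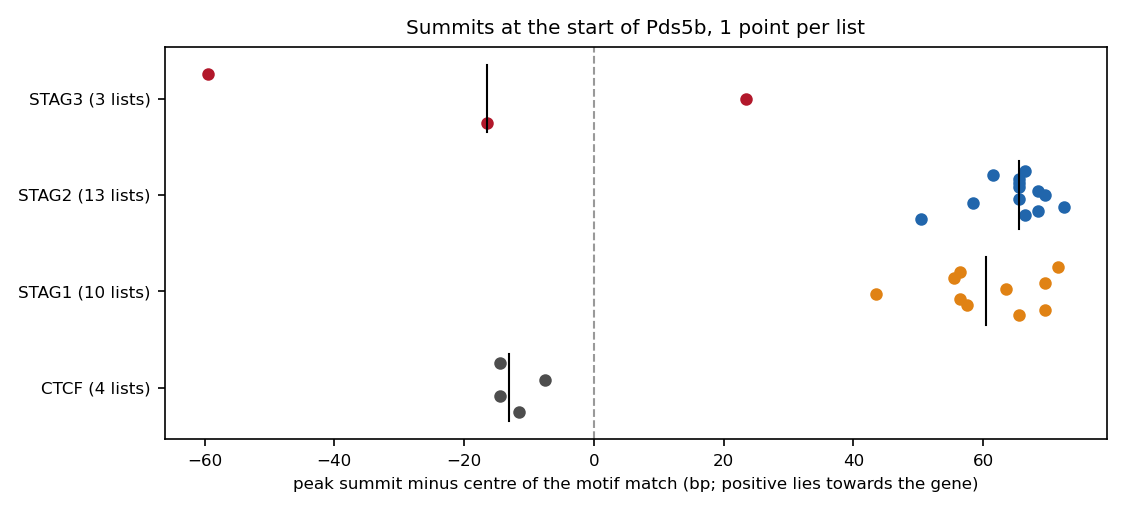
Distance in bp from the centre of the motif match to the summit of the strongest peak at the start of Pds5b (horizontal axis), by protein, with 1 point per list and a bar at the median. STAG2 and STAG1 points lie on the gene's side with medians of 65.5 and 60.5 bp, CTCF points on the other with a median of -13.0 bp, and STAG3 points spread from -59.5 to 23.5 bp.

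Such an offset was seen at some of the members' CTCF sites and not at others. Median STAG2 summits lay 75.5 bp from the CTCF summits at the stronger Nipbl site, 99.5 bp at the other, 78.5 bp at the start of Pds5b and 90.0 bp at the outer Esco1 site. They lay within 7.50 bp at the inner Pds5a site, the inner Esco1 site, the Pds5b site 7023 bp below the gene and the one at chr5:150717846-150718304. Single STAG2 summits at the inner Esco1 site spread from 10610100 to 10610499, with the median CTCF summit at 10610443. Over the 16147 sites of all gene windows with CTCF in all 4 lists and STAG2 in at least 9, the distances had quartiles of 14 and 103 bp around a median of 66 bp.

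Across cell types Pds5b had STAG2 counts of 4 and 3 in ESC, 5 and 3 in EpiLC, 5, 3 and 3 in d2PGCLC, 3, 3 and 3 in d4c7PGCLC and 2, 1 and 2 in GSC. STAG1 counts were 3 and 2, 1 and 1, 2 and 2, 3 and 4, and 1 and 1. The start was the single Pds5b site that the GSC STAG1 lists called. GSC STAG3 lists held 1, 3 and 1, with 2 peaks on the start site in replicate 2.

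Of the acetyltransferase genes, Esco1 had 4 sites, all but 1 of them called in several lists, and Esco2 had few peaks outside the EpiLC STAG2 lists. Esco1, at chr18:10566507-10610863, had STAG2 counts of 3 and 3 in ESC, 3 and 3 in EpiLC, 2, 2 and 2 in d2PGCLC, 2, 2 and 2 in d4c7PGCLC and 1, 1 and 2 in GSC. STAG1 counts were 2 and 1, 1 and 1, 2 and 2, 2 and 2, and 1 and 1, and GSC STAG3 counts were 0, 3 and 2. Within d2PGCLC and d4c7PGCLC the STAG2 and STAG1 lists gave the same count of 2 throughout.

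The outer Esco1 site, chr18:10617432-10618381, lay 6569 bp beyond the upper end and over the lower end of the neighbour Snrpd1. It was called in 2 STAG3, 13 STAG2, 9 STAG1 and 4 CTCF lists. The inner site, chr18:10609952-10610823, 40 bp inside the upper end, was called in 2 STAG3, 11 STAG2, 6 STAG1 and 4 CTCF lists. CTCF was strong at both, with fold enrichment of 40.9 to 41.4 at the outer and 37.1 to 39.2 at the inner site. In GSC all 3 STAG2 and both STAG1 lists called the outer site, while 1 STAG2 list and no STAG1 list called the inner one. Both longer STAG3 lists called both.

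Esco2, at chr14:65819027-65833969, had 3 and 3 STAG2 peaks in EpiLC and at most 1 in any other STAG2 list. No STAG1 or CTCF list held any, and GSC STAG3 replicate 1 held 1. The EpiLC lists shared the sites at chr14:65825166-65825527 and chr14:65830027-65830600, which no other list called. Fold enrichment at the second was 29.3 and 17.6. Sites called in both EpiLC STAG2 lists and nowhere else numbered 3 at Mau2, 2 at Esco2 and 1 at Wapl, 9.68% of the 62 sites against 4.00% of sites in all gene windows. The 2 EpiLC STAG2 lists are also the longest of the 30.

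Cdca5, the sororin gene at chr19:6085097-6091773, is the smallest of the 8 and had no STAG1 or CTCF peak. STAG2 lists held 1 and 0 peaks in ESC, 2 and 1 in EpiLC, 3, 0 and 1 in d2PGCLC, 1, 0 and 0 in d4c7PGCLC and 0, 0 and 0 in GSC. GSC STAG3 lists held 2, 2 and 3. In replicates 1 and 3 the strongest STAG3 peak lay at chr19:6076941-6077429, 7668 bp below the gene and over the neighbour Vps51. Its fold enrichment was 6.07 and 7.82. The start site, chr19:6084622-6085813, was called in all 3 STAG3 lists, in STAG2 replicate 1 of d2PGCLC and of d4c7PGCLC, and in no other list. Taking the strongest peak of each list, STAG3 fold enrichment at this site was 4.59, 5.49 and 6.65, beside list medians of 6.07, 5.49 and 5.48. The site also reaches over the upper coordinate of the neighbour Zfpl1, so it cannot be assigned to Cdca5 alone. No STAG2 or STAG1 list of GSC called this site.

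**Figure D4:**
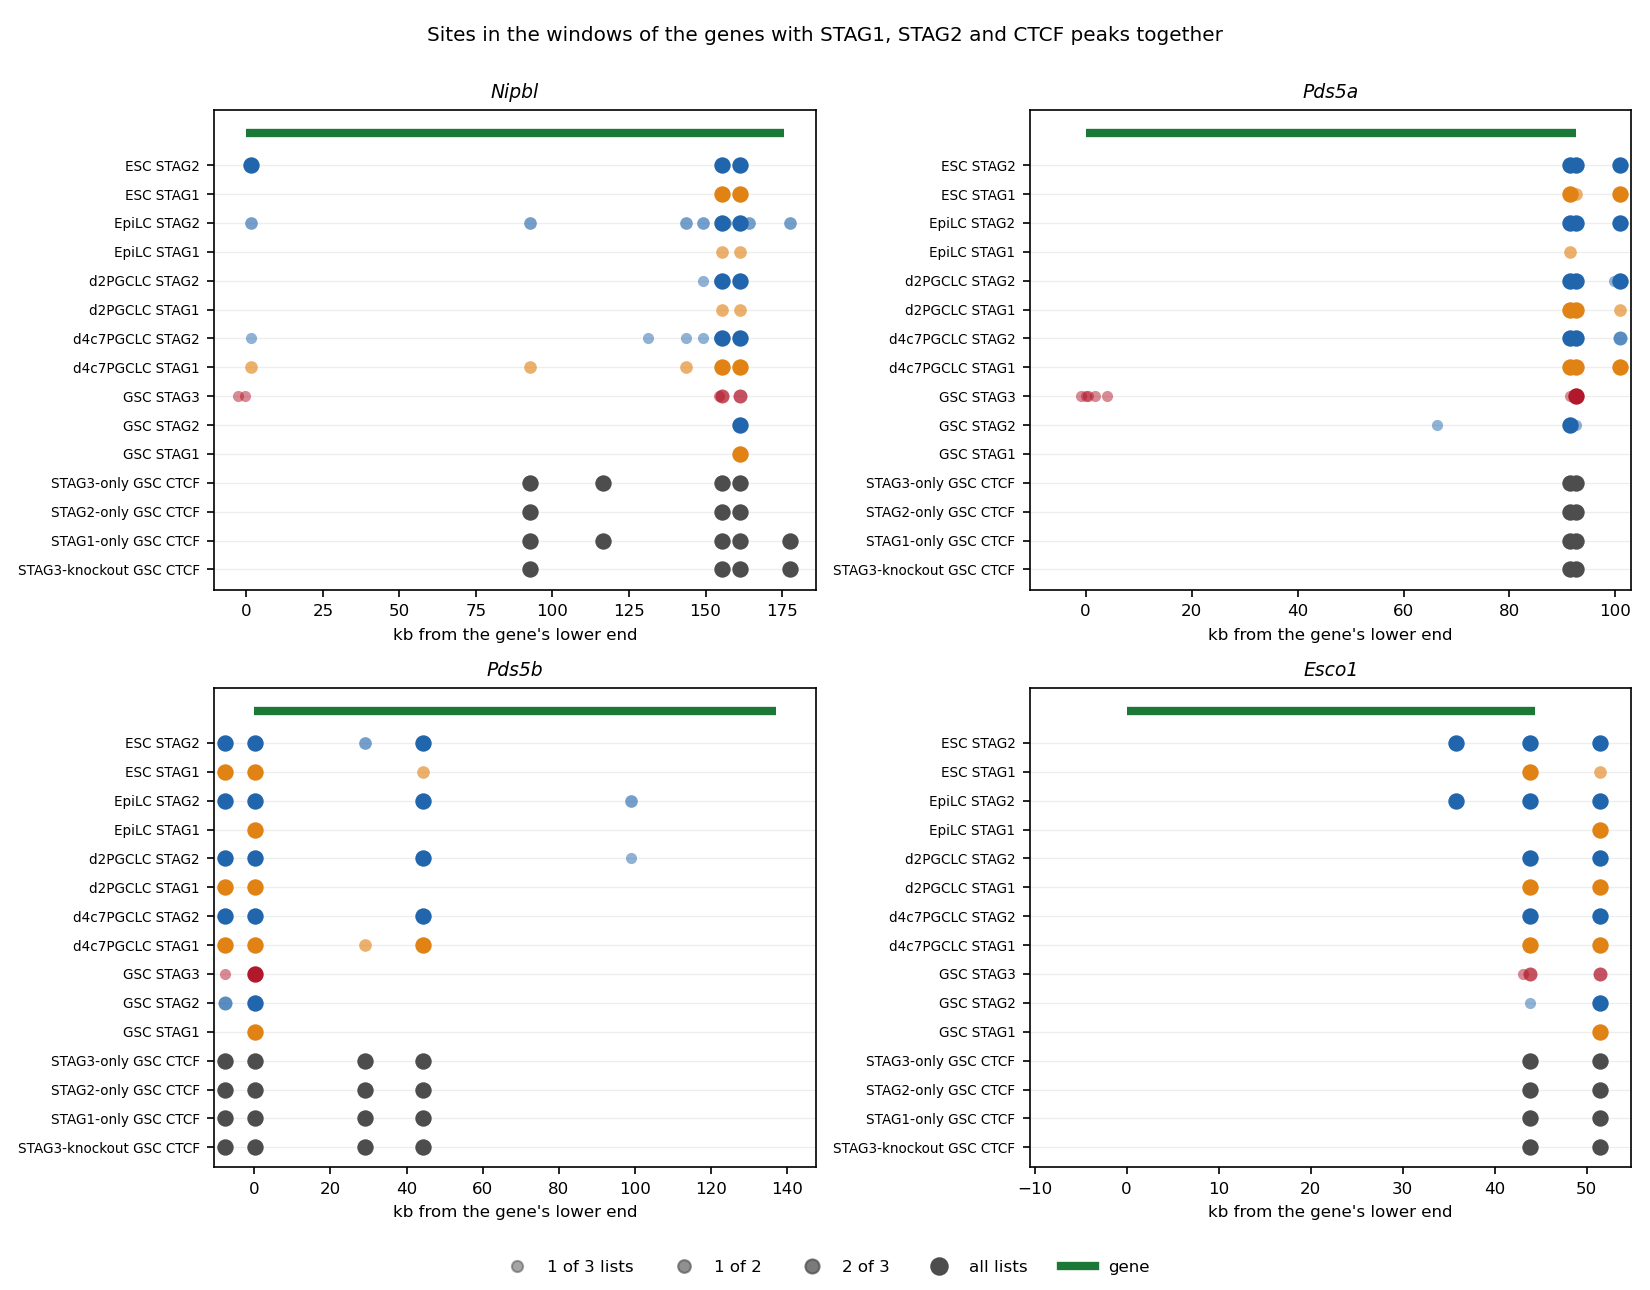
Sites in the windows of Nipbl, Pds5a, Pds5b and Esco1, by distance in kb from the gene's lower coordinate (horizontal axis), with rows, points and the green bar as for the other genes. STAG2 and STAG1 points stack over CTCF points, and the start of Pds5b was called in every row.

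The comparison of STAG2 with STAG1 asked which genes were more often bound by the one than by the other. Wapl, Pds5b, Pds5a and Esco1 had more STAG2 than STAG1 peaks, and the other 4 did not pass the test. Per window and averaged over cell types, Wapl had 2.67 STAG2 and 0.100 STAG1 peaks, Pds5b 3.17 and 2.00, Pds5a 2.80 and 1.80, and Esco1 2.27 and 1.50. By an exact permutation test the differences were 2.57 (adjusted p = 0.00986), 1.17 (adjusted p = 0.0257), 1.00 (adjusted p = 0.0335) and 0.767 (adjusted p = 0.0458). It was two-sided and permuted the protein labels within cell types over 36000 arrangements, with Benjamini-Hochberg adjustment over all 18922 genes with a peak. It called 61.8% of those genes, so 4 of 8 members is no more than the background. The differences of Nipbl (1.47, adjusted p = 0.0703), Cdca5 (0.733, adjusted p = 0.0526), Esco2 (0.733, adjusted p = 0.114) and Mau2 (0.6, adjusted p = 0.370) did not pass this exact permutation test. None of the 8 had fewer STAG2 peaks, and 0.0317% of genes did.

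Every STAG2 list was longer than every STAG1 list of its cell type except in d4c7PGCLC, where lengths were 53988, 35799 and 37236 for STAG2 and 38491 and 42013 for STAG1. Shortening or scaling the lists changed the calls, and shortening also keeps only the stronger peaks of a long list. When every STAG list was shortened to its 9641 peaks of highest fold enrichment, no member was called and 2.40% of 10933 genes were called higher for STAG2. Only Nipbl, Pds5a, Pds5b and Esco1 kept a STAG2 or STAG1 peak to test, with unadjusted p of 0.4 to 1, and the Pds5b difference turned to -0.0333. In the exact permutation test per 10000 peaks of the list, Wapl stayed higher for STAG2 (0.356, adjusted p = 0.0150, called higher at 17.7% of genes). In that permutation test Pds5b and Esco1 turned and were called lower (-0.169 and -0.204, adjusted p = 0.0200 and 0.0153, called lower at 13.8% of genes). Leaving out single lists kept Wapl below the threshold each time, with adjusted p of 0.00584 to 0.0269 by the exact permutation test. All STAG2 peaks behind the Wapl difference were weak, none above the 39.4th percentile of its list. Esco1 lost its call without any 1 of 11 lists (adjusted p of up to 0.0821). Pds5a lost it without ESC STAG1 replicate 2 or d2PGCLC STAG1 replicate 1 (0.0588 and 0.0744), and Pds5b without either of these or ESC STAG2 replicate 1 (0.0542, 0.0520 and 0.05125). Cdca5 gained a call without any 1 of 4 STAG2 lists, ESC replicate 2, d2PGCLC replicate 2 and d4c7PGCLC replicates 2 and 3, with adjusted p down to 0.0262. Esco1 and Pds5b also lost their calls with flanks of 2.5 kb (adjusted p = 0.0511 and 0.0779, exact permutation) and 25 kb (0.0754 and 0.0629), Esco1 with every gene tested (0.0530), and Pds5a with only peaks at a −log10 q of at least 5 (0.0535). With flanks of 25 kb Mau2, Esco2 and Cdca5 gained calls (exact permutation, adjusted p = 0.00605, 0.0420 and 0.0230).

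GSC were next set against the other 4 cell types, within STAG2 and within STAG1. Pds5a, Pds5b and Esco1 had fewer peaks in GSC. Averaged over both proteins, Pds5a had 0.833 peaks in GSC and 2.68 in the others, Pds5b 1.33 and 2.88, and Esco1 1.17 and 2.01. The differences were -1.84 (adjusted p = 0.00362), -1.54 (adjusted p = 0.00748) and -0.846 (adjusted p = 0.0215) by the exact permutation test over 12870 arrangements, which called 50.4% of genes lower in GSC. That test permuted single lists, so lists of the same cell type counted as separate units, although GSC is 1 cell type set against 4. None of the 8 was called higher in GSC, and 0.106% of genes were. In the same exact permutation test Nipbl (-1.74, adjusted p = 0.0683), Wapl (-1.30, adjusted p = 0.221), Cdca5 (-0.450, adjusted p = 0.250), Esco2 (-0.400, adjusted p = 0.550) and Mau2 (-0.300, adjusted p = 1) did not pass. In the exact test without GSC STAG2 replicate 1 or 2 the Esco1 call was lost (adjusted p = 0.0865 and 0.0968), and without d2PGCLC STAG1 replicate 1 Nipbl gained one (adjusted p = 0.0439). With flanks of 25 kb Nipbl, Mau2 and Cdca5 were called as well (exact permutation, adjusted p = 0.0477, 0.00605 and 0.0449).

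Here too directions differed between the full and the shortened or scaled lists. List length was 9641 to 25979 peaks for the STAG2 and STAG1 lists of GSC and 14720 to 84904 for the others. With lists of equal length, the exact permutation test had Nipbl and Esco1 turned to more peaks in GSC (0.900 and 0.950, adjusted p = 0.00684 and 0.00389), a call that 12.1% of 10933 genes had. In those shortened lists the Nipbl window held 1 peak in each of the 3 STAG2 and 2 STAG1 lists of GSC and in 2 of the other 18. The Esco1 window held 1 peak in each of the 5 GSC lists and in 1 of the other 18. By the same exact test Pds5b lay at 0.104 (adjusted p = 1) and Pds5a at -0.375 (adjusted p = 0.331). Per 10000 peaks, the exact permutation test called Esco1 higher in GSC (0.315, adjusted p = 0.00499, called at 16.9% of genes) and did not call Nipbl (0.153, adjusted p = 0.466), Pds5b (0.201, adjusted p = 0.0521) or Pds5a (-0.252, adjusted p = 0.330).

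**Figure D5:**
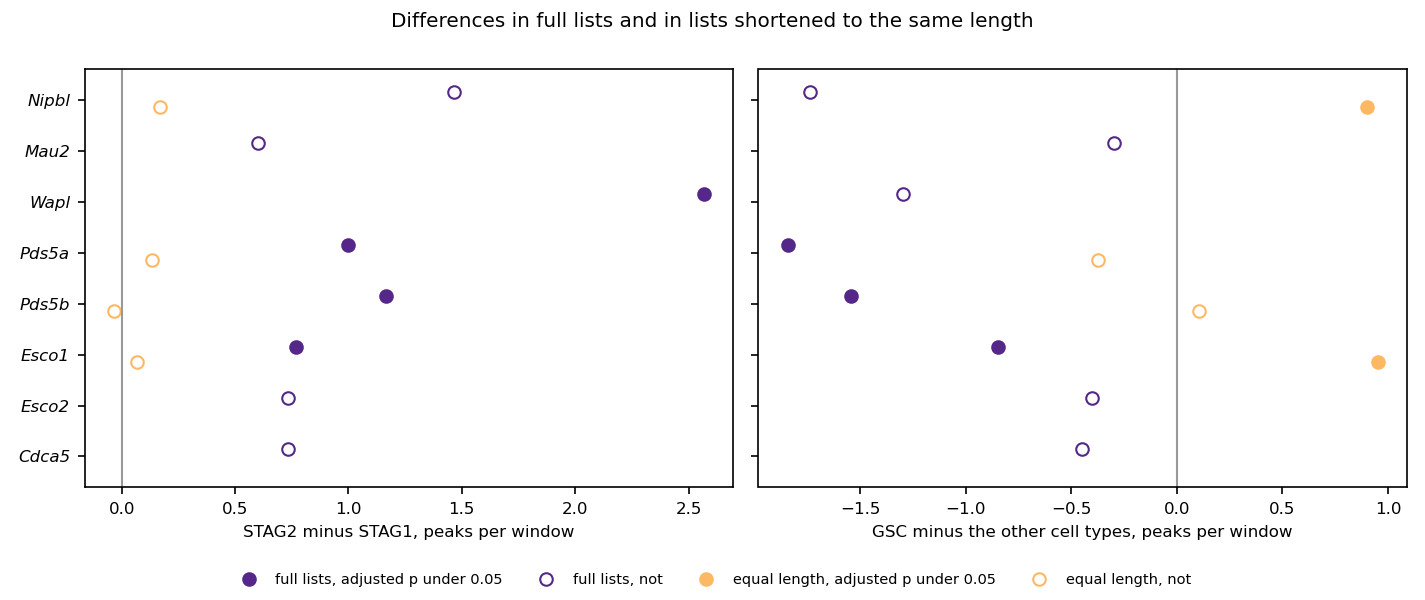
Difference in peaks per window between STAG2 and STAG1 (left) and between GSC and the other cell types (right) for each gene, in the full lists and in lists shortened to 9641 peaks. Filled points passed the exact permutation test at an adjusted p under 0.05, open points did not, and genes without a peak in the shortened lists have no such point. Wapl lies farthest right at 2.57 in the full lists, and Nipbl, Pds5b and Esco1 change sign in the right panel.

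Within GSC, STAG3 was compared with STAG2 and STAG1 by whether the lists overlapped, since 3 against 3 or 2 lists cannot give an exact p under 0.1. Cdca5 alone had every STAG3 list above every STAG2 list, 2, 2 and 3 peaks against 0, 0 and 0, a pattern seen in 11.2% of genes. No member had every STAG3 list below, a pattern of 0.956% of genes against STAG2 and 0.232% against STAG1. Against STAG1, Cdca5 and Pds5a separated, at 2, 2 and 3 against 0 and 0 and at 1, 4 and 4 against 0 and 0, as did 34.0% of genes. Replicate 1 of STAG3 decides these counts. Without it, 5 members lay above STAG2 (44.9% of genes did), namely Nipbl, Mau2, Wapl, Pds5a and Cdca5, and 6 lay above STAG1 (80.1% of genes), Esco1 being the sixth. With lists of equal length no member separated. The Cdca5 window then held 1, 0 and 1 STAG3 peaks against 0 in all 5 STAG2 and STAG1 lists. These STAG3 peaks lay at the site 7668 bp below the gene and not at its start. STAG3 peaks were called in a different working directory from those of STAG2 and STAG1, and that cannot be told apart from the antibody.

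At promoters STAG3 reached all 5 members with a promoter in the table. It was called in all 3 lists at Pds5a, Pds5b and Cdca5, as at 13.7% of promoters, and in 2 of 3 at Mau2 and Wapl. At least 1 list called 53.3% of promoters for STAG3, 53.6% for STAG2, 12.1% for STAG1 and 9.92% for CTCF. Of the 62 sites, 3 were called in all 3 STAG3 lists, those at these starts (8.28% in all gene windows). A further 13 were called for STAG3 alone (21.0%, against 8.93%), of which 5 lay at Pds5a. Apart from the site over the start of Mau2, called in 2 STAG3 lists, each of these 13 was called in 1 list. STAG2 was called at the promoters of Pds5a, Pds5b, Cdca5, Mau2 and Wapl in 11, 13, 2, 0 and 8 of 13 lists. In the same order, STAG1 was called in 5, 10, 0, 0 and 1 of 10 lists. CTCF was called in all 4 lists at Pds5a and Pds5b and in none at Cdca5, Mau2 and Wapl.

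CTCF occupancy was compared between genotypes as a list of calls, with no replicate check. Of 15 CTCF intervals in the 8 windows, 12 were called in all 4 genotypes, or 80.0%, beside 79.2% of 31895 intervals in all gene windows. The 3 others were weak, with fold enrichment of 4.49 to 7.10. That at chr15:8406291-8406541 in Nipbl was called in STAG3-only and STAG1-only GSC. Those at chr15:8467290-8467565, above Nipbl, and at chr14:34680262-34680548 in Wapl were called in STAG1-only and STAG3-knockout GSC. Counts of CTCF peaks were 2 in each genotype for Pds5a and Esco1 and 4 in each for Pds5b. In the order STAG3-only, STAG2-only, STAG1-only and STAG3-knockout, Nipbl had 4, 3, 5 and 4 and Wapl 1, 1, 2 and 2.

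The share of STAG peaks on CTCF intervals called in all 4 genotypes was taken per protein and, since STAG3 was mapped in GSC alone, within GSC. Within GSC it was 36.4% for STAG3 (16 of 44 peaks, at most 42.1% in a list), 88.9% for STAG2 (16 of 18, at least 83.3% in each list) and 100% for STAG1 (6 of 6). In all gene windows of GSC it was 35.1%, 63.8% and 97.9%. STAG2 shares in the earlier stages, on the same GSC intervals, were 54.3% (ESC), 32.2% (EpiLC), 63.6% (d2PGCLC) and 69.2% (d4c7PGCLC). In all gene windows they were 42.7%, 40.2%, 45.7% and 57.6%. STAG1 shares in these stages were 83.3 to 100%, and 71.5 to 83.5% in all gene windows. Pooled over cell types, the share was 36.4% for STAG3 (16 of 44 peaks), 55.9% for STAG2 (109 of 195) and 88.7% for STAG1 (63 of 71), and in all gene windows it was 35.1%, 47.8% and 77.7%. The SD over lists was 6.47 percentage points for STAG3, 23.4 for STAG2 and 8.48 for STAG1. By site, the 12 shared CTCF sites had STAG3 at 8, STAG2 at 11 and STAG1 at 11, and in all gene windows 45.9%, 92.5% and 87.0% of such sites did. The 47 sites without a CTCF call in the mutant GSC had STAG3 at 18, STAG2 at 34 and STAG1 at 4. In all gene windows 32.5%, 84.8% and 15.8% of such sites did. No CTCF list from ESC, EpiLC or PGCLC was used, so CTCF at these sites in those cells is unknown. No member site had STAG1 without STAG2 in any list (1.84% of sites in all gene windows did), while 32 of 62 had STAG2 without STAG1 (51.6%, against 52.1%). In lists of equal length the shares were 50.0% for STAG3 and 100% for STAG2 and STAG1. The shortened lists kept STAG3 peaks only at Pds5b (1, 1 and 1), Esco2 (1, 0 and 0) and Cdca5 (1, 0 and 1). Those on CTCF were all at the start of Pds5b.

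Other genes of the pathway were taken as a fixed list of 18, covering the ring (such as Rad21, its kleisin subunit), SMC3 deacetylation, removal in mitosis, replication-linked cohesion and partner proteins. In the full lists 11 of the 18 had more STAG2 than STAG1 peaks, beside 61.8% of all genes. Among them were Rad21, Stag2, Hdac8, Sgo1, Espl1, Pttg1, Plk1, Aurkb, Chtf18 and Zfp143. Aurkb, a mitotic kinase, had 3.2 STAG2 and 0.6 STAG1 peaks (difference 2.60, adjusted p = 0.00363, exact permutation). None of the 18 had fewer, and 11 had fewer peaks in GSC, beside 50.4% of genes. With lists of equal length 1 of the 13 with a peak stayed higher for STAG2, Aurkb. Median differences between STAG2 and STAG1 were 0.883 peaks over the 8 members, 0.983 over the 18 and 1.03 over all genes tested. Between GSC and the others they were -1.07, -1.20 and -1.05.

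The gene with the most similar profile of peaks per 10000 over the 26 STAG lists, on another chromosome or over 1 Mb away, was found for each member. Pearson correlations, given as a description, were 0.970 for Cdca5 with Glt8d1, 0.957 for Mau2 with Lgals4, 0.897 for Wapl with Mrnip and 0.890 for Esco2 with Gm29958. They were 0.859 for Esco1 with Cpz, 0.831 for Pds5a with Cpeb1, 0.791 for Pds5b with Aldh18a1 and 0.735 for Nipbl with Dus2. All lists share their libraries between genes, and the highest values belong to genes with few peaks, such as Cdca5 with 16 in all lists and Glt8d1 with 9.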

How the data were processed

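Peaks of STAG3, STAG2, STAG1 and CTCF were read from 30 deposited lists with the columns of MACS2 narrowPeak. The submitters' processing notes name MACS2, the aligner Bowtie2 2.3.4.1, the trimmers cutadapt 1.9.1 and Trim Galore 0.4.1, and the utilities deepTools 3.5.0, bedtools 2.29.2 and SAMtools 1.7, with the builds mm10 and GRCm38.p3. Peak calling options and control libraries were not given in the sources used here. In the deposited lists each peak has a fold enrichment over background at its summit (a ratio), −log10 p and −log10 q values (at least 2.00 everywhere) and a score. These are the authors' own values and served only to rank, filter or describe peaks within a list. The 26 STAG lists were called per library and the 4 CTCF lists on pooled replicates, per the peak names in the deposited files. Depth is unknown, so no interval was computed from it.

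A peak counted for a gene when it overlapped the gene or 10 kb on either side by at least 1 bp. Python 3.11.15, numpy 2.4.6, pandas 2.3.3 and matplotlib 3.10.9 were used. Tests were exact permutations of list labels within cell types or within proteins, two-sided, over all 18922 genes with a peak, adjusted by Benjamini and Hochberg, with a threshold of 0.05. Only the test of STAG2 against STAG1 was tried on simulated counts. Those counts had no difference in list length between the proteins, so they do not cover the lengths seen here. The labels do not say that replicates were separate cultures, so p-values measure the spread between these lists, which may be technical. Alternatives were flanks of 2.5 and 25 kb, −log10 q of at least 5, an overlap of 50%, lists of equal length, counts per 10000 peaks, CTCF called in any genotype, no filter, a replicate block and each list left out. Sites were named by fixed rules: per gene, the site at an end and the site in the most lists, and the STAG2 site in the most lists without STAG1. Sites beyond these, and the looser motif, were chosen after their values were seen. Of the other pathway genes, only those called for STAG2 were named by rule, and 1 most similar gene was named per member. The members and lists were chosen with earlier results of these data known. The result of 1 other pathway gene is not reported here.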

Additional observations from a re-analysis of the deposited data

How the results depend on the processing

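The number with more STAG2 than STAG1 peaks, 4 in the full lists, was 2 with flanks of 2.5 kb, 0 with lists of equal length, 1 per 10000 peaks and 1 to 5 when single lists were left out. The number with fewer peaks in GSC, 3, was 6 with flanks of 25 kb, 0 with lists of equal length, 0 per 10000 peaks and 2 to 4 with single lists left out. Over all genes the first count was 11691 in the full lists, 262 with equal length and 3352 per 10000 peaks, and the second 9546, 1450 and 4368. With flanks of 2.5 kb the first was 9223 of 17412 genes, and with flanks of 25 kb the counts were 14899 and 12951 of 20075. STAG3 lay above STAG2 in GSC for 1 member (0 with equal length, 1 to 5 with single lists left out) and above STAG1 for 2 (1 at −log10 q of at least 5, 0 with equal length, 2 to 6). CTCF sites called in all 4 genotypes numbered 12, and 20 with flanks of 25 kb. The shares of peaks at these sites were 50.0% for STAG3, 100% for STAG2 and 100% for STAG1 with equal length, and 32.0 to 41.7%, 53.8 to 61.0% and 87.7 to 91.2% with single lists left out. With equal length all STAG3 peaks at CTCF sites were at the start of Pds5b. With equal length the signs turned for STAG2 minus STAG1 at Pds5b (-0.0333), and for GSC minus the others at Nipbl (0.900), Pds5b (0.104) and Esco1 (0.950). Per 10000 peaks they turned for STAG2 minus STAG1 at Nipbl (-0.102), Pds5a (-0.00451), Pds5b (-0.169) and Esco1 (-0.204), and for GSC minus the others at Nipbl (0.153), Pds5b (0.201) and Esco1 (0.315). The cause was not tested beyond the change of scale itself.

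Replicate numbers did not pair the lists: of 10 pairs of STAG2 and STAG1 lists with the same number, none had a correlation of deviations over 0.1 (-0.0471 to 0.00381). In ESC and EpiLC, with 2 lists per protein, both pairs necessarily gave the same value, so the 10 are not independent. With the replicate block, which allows fewer arrangements, 0 members and 3396 genes were called for more STAG2 peaks, and 3 members and 9343 genes for fewer peaks in GSC.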
